A study of Mus musculus with 2 samples.

Results

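Newly formed oligodendrocytes are cells between the dividing precursor and the mature, myelinating oligodendrocyte. Here they are the cells of the mouse lateral hypothalamic area that carried 4 or more UMIs (counted molecules) of Bmp4, Enpp6, Neu4 and Gpr17 together, 0 UMIs of Pdgfra and at most 3 UMIs of the neuronal genes Snap25 and Syt1. Cells were thus chosen by their own UMIs of these 7 genes, among barcodes with 500 or more detected genes and no more than 20% mitochondrial UMIs. The choice gave 194 cells of 6906 that passed the quality limits, out of 7232 barcodes in all. They were set against 194 precursors, which had 1 or more Pdgfra UMIs, and against 1210 mature oligodendrocytes, which had 5 or more UMIs of Mog, Mag, Opalin and Ermn together, 0 of Pdgfra and fewer than 4 of the genes that chose the newly formed cells. Precursors in addition had fewer than 5 UMIs of the mature genes and at most 3 UMIs of 4 fibroblast genes (Dcn, Lum, Col1a1 and Col1a2), because fibroblasts also express Pdgfra. The limits on neuronal genes and quality held for all groups, and no cell belonged to more than 1 group.

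The study profiled single cells of lateral hypothalamic area from C57BL/6 littermates at postnatal day 30 with droplet sequencing (Chromium, v2 chemistry). One library pooled 3 animals labelled male and the other pooled 2 animals labelled female, so each sex label has 1 library and single animals cannot be told apart. No treatment or transgene is named in the labels. The library labelled male held 20641 UMIs of Xist and 0 of Y-linked genes, and the library labelled female held 30 and 7618, so the transcripts of the sex chromosomes go against both labels. Libraries are therefore named by their labels only, and values are given with the male label first. They held 3439 and 3793 barcodes with 23151801 and 27437142 UMIs. They shared 18 barcode sequences, 0 of them in the newly formed cells.

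Oligodendrocytes arise from precursors that divide in response to platelet-derived growth factor, whose receptor Pdgfra encodes. A precursor that leaves the cycle passes through a brief premyelinating state in which it extends processes towards axons, and many such cells are thought to die before they myelinate. Gpr17, a membrane receptor, Enpp6, a choline phosphodiesterase, Bmp4, a secreted growth factor of the TGF-beta family, and Neu4, a sialidase, are widely used to recognise this state. Mature cells then wrap axons with membrane rich in cholesterol and galactolipids.

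The 4 genes that chose the cells are described only. Gpr17 was found in 80 of 84 and 106 of 110 newly formed cells, Enpp6 in 56 and 81, Neu4 in 52 and 56, and Bmp4 in 49 and 50. All 4 were found together in 32 and 37 cells. The 4 genes did not mark the same stretch of the lineage. Gpr17 was also found in 73 of 90 and 84 of 104 precursors and Neu4 in 50 and 52, whereas Bmp4 was found in 2 and 1 precursors and Enpp6 in 1 and 1. On the mature side Enpp6 was found in 97 of 608 and 108 of 602 cells and Gpr17 in 68 and 62, whereas Bmp4 was found in 3 and 2 and Neu4 in 2 and 2. Among neurons, which should lack these genes, 5 of 1894 and 17 of 2151 cells reached 4 UMIs of the 4 genes. A cell with Neu4 and Gpr17 was thus often still a precursor by its Pdgfra, and 30 and 46 precursors would have entered the newly formed cells but for that gene.

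The lineage of the cells was checked against genes outside the choice. A UMI of the lineage factors Olig1, Olig2 or Sox10 was found in 84 of 84 and 109 of 110 newly formed cells. The same held for 85 of 90 and 99 of 104 precursors, so these factors speak to the lineage and not to the stage. Of the 6 markers of each other cell type, those of fibroblasts summed to 0 and 11 UMIs over all newly formed cells, those of mural cells to 5 and 6, those of endothelial cells to 8 and 42, and those of microglia to 43 and 50. The 8 neuronal markers summed to 340 and 278 CPM (UMIs scaled to 1000000 per sum) in newly formed cells, 704 and 683 CPM in precursors and 221 and 256 CPM in mature cells. The 7 astrocyte markers summed to 321 and 285 CPM, against 1118 and 1219 CPM in precursors and 352 and 405 CPM in mature cells. The 6 endothelial markers summed to 194 and 646 CPM in precursors, and the 4 globin genes of erythrocytes to 25.9 and 2812 CPM there, against 18.9 and 61.5 CPM in newly formed cells and 19.6 and 758 CPM in mature cells. The marker sums of these other cell types were thus mostly highest in precursors. Microglial markers in the library labelled male were an exception, at 101 CPM in newly formed cells, 51.8 CPM in precursors and 69.6 CPM in mature cells. The sums do not tell RNA of other cell types from the cells' own transcripts. Fgfr3, for example, is an astrocyte marker here and a listed growth factor receptor below. The part of RNA from other cells in the comparison with precursors was not tested.

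The newly formed cells were not uniform. Of the 84 and 110 cells, 33 and 31 had 0 UMIs of the mature genes Mog, Mag, Opalin and Ermn, 19 and 29 had 1 to 4, and 32 and 50 had 5 or more. Cells rich in the choosing genes had few mature transcripts and cells at the lower limit had many. At exactly 4 UMIs of the choosing genes stood 8 and 8 cells, all with 5 or more mature UMIs, and just outside, at 3 UMIs, stood 16 and 15 cells, of which 14 and 15 had 5 or more. The cells near the limit were also large, with a median of 7486 and 6587.5 UMIs at 4 UMIs of the choosing genes. The 13 and 20 cells with 4 to 7 UMIs of the choosing genes had a median of 54 and 58 mature UMIs, above the 24 and 23 of mature cells, so by these transcripts they go against a name that places them short of mature cells. Their median depth, 7247 and 8562.5 UMIs, was higher too. Over all newly formed cells 16 and 28 had 20 or more mature UMIs. The median was 4836 and 5142.5 UMIs over all newly formed cells, 2303.5 and 2466.5 in precursors and 4164.5 and 4647 in mature cells. Precursors lay close to the fewest UMIs of any cell past the quality limits, 1987 and 2155. A doublet caller (Scrublet) marked 2 and 3 newly formed cells, and without the cells it marked the counts of called genes moved by less than 1.5 times.

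**Figure D1:**
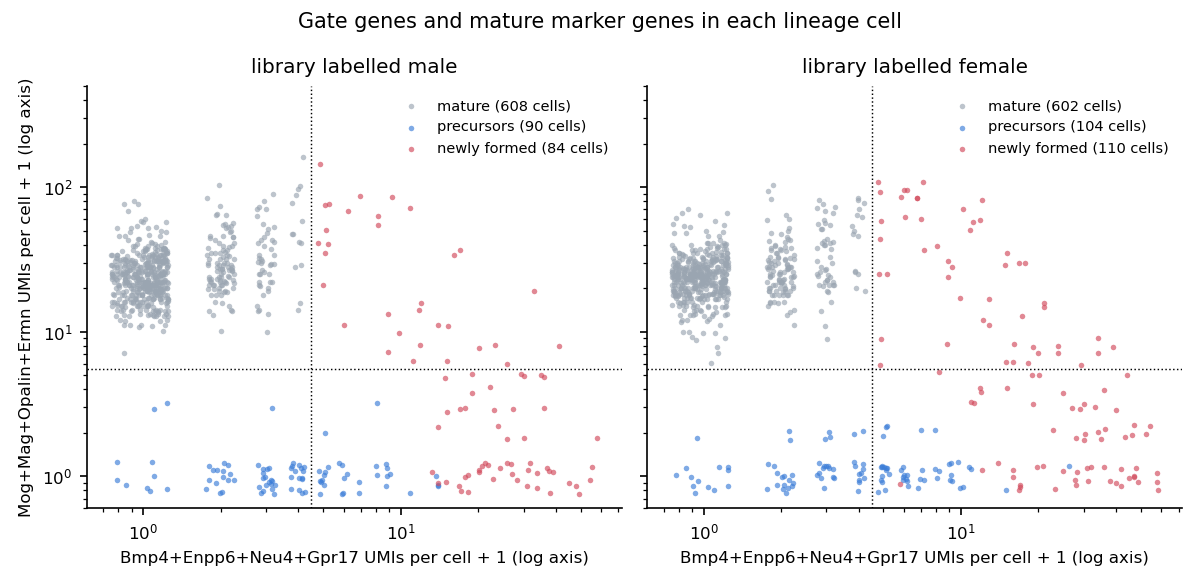
Each point is 1 cell, with UMIs of Bmp4, Enpp6, Neu4 and Gpr17 plus 1 on the horizontal log axis and UMIs of Mog, Mag, Opalin and Ermn plus 1 on the vertical log axis, slightly jittered, for the libraries labelled male (left) and female (right). Dotted lines mark the limits of 4 and 5 UMIs; newly formed cells (red, 84 and 110) run from many choosing and few mature UMIs at the lower right to few choosing and many mature UMIs at the upper left.

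Newly formed cells made up 2.56% (exact 95% interval 2.05 to 3.17) and 3.03% (2.50 to 3.64) of the cells past the quality limits, and 10.7% (8.66 to 13.1) and 13.5% (11.2 to 16.0) of the 3 lineage groups. With at least 1000 genes and at most 10% mitochondrial UMIs required, the shares of the lineage groups were 17.9% and 25.8%. The intervals cover counting error only, and they overlap between the libraries. With 1 library per label no test between them is possible.

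For the comparisons, UMIs were summed per library and group, and each pair of groups was compared by the quasi-likelihood test of edgeR, paired by library, on 1 residual degree of freedom. Levels below are CPM after TMM scaling, which sets the typical gene at a fold of 1. Against plain library totals this moved the median log2 fold change from -0.32 to 0.01 for newly formed cells against precursors and from 0.38 to 0.00 against mature cells, so each difference is relative to the typical gene of the 2 groups. Because the groups were set by UMIs of the same cells, genes that go together with the choosing genes differ in part by construction, and a gene seen in only 1 of the groups could enter a test through that group alone. The p-values set a group difference against a spread between 2 pools of littermates that is shared over genes. Against precursors and against mature cells, the fit gave a gene's own variation between the pools no weight in that spread. A small p-value thus does not measure how steady that gene was between pools. The 2 comparisons with precursors and with mature cells share the newly formed sums.

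Against precursors, newly formed cells had lower levels of most precursor and cell division genes, had higher levels of most of the listed myelin, lipid and cytoskeletal genes, and kept a few matrix genes of precursors. Of 6773 genes tested, 1313 were higher (19.4%) and 1322 were lower (19.5%) in newly formed cells at an adjusted p under 0.05. With plain totals in place of TMM the split was 890 higher and 2088 lower. DESeq2 called 535 and 366.

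All 26 listed precursor genes were tested, and 23 were lower in newly formed cells, with a list median log2 fold change of -3.0 against 0.01 over all genes. Cspg4, the NG2 proteoglycan, stood at 19.5 and 3.32 CPM against 269 and 311 CPM in precursors. Cspg5, another transmembrane proteoglycan, stood at 29.2 and 43.2 CPM against 1880 and 1795 CPM, a log2 fold change of -5.63 ± 0.20 (SE; edgeR adjusted p = 1.8e-161). Ptprz1, a receptor phosphatase, was at 212 and 184 CPM against 1510 and 1637 CPM. In all 3 the groups lay far apart in both libraries. Cdo1, cysteine dioxygenase, had 0 UMIs in all newly formed cells and 106 in precursors, which makes it at least 61.3-fold lower, counted against 3 UMIs over the group. The transcription factor genes Hes5 (-4.64 ± 0.26), Hes1 (-4.69 ± 0.42) and Etv5 (-4.46 ± 0.39), all expressed in precursors, were lower on the log2 scale as well.

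A smaller set of precursor genes was not lower. Tnr, tenascin-R of the extracellular matrix, was at 1485 and 1540 CPM in newly formed cells against 534 and 566 CPM in precursors, a log2 fold change of 1.44 ± 0.14 (edgeR adjusted p = 4.5e-22). It was the 1 listed precursor gene that was higher. The proteoglycan Bcan (brevican) stood at 665 and 707 CPM against 664 and 736 CPM, a log2 difference of -0.05 ± 0.15 that did not pass the test (edgeR adjusted p = 0.81). Sox6, a factor that holds back differentiation, was at 219 and 191 CPM against 211 and 311 CPM and did not pass either (-0.40 ± 0.19, edgeR adjusted p = 0.078). Against mature cells these genes were higher. Tnr stood at 5.19 and 5.57 CPM in mature cells, a log2 fold change of 8.14 ± 0.20 for newly formed against mature cells, and Bcan (4.05 ± 0.16) and Sox6 (4.63 ± 0.24) were higher than in mature cells too. Of the 20 precursor genes tested there, 15 were higher and 0 lower. Of the 20 tested in both comparisons, 12 were called both lower than in precursors and higher than in mature cells.

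Transcripts of dividing cells were at or near 0 in newly formed cells. Of 22 listed cell cycle genes 13 could be tested against precursors, and 9 were lower. Top2a, the topoisomerase of dividing cells, had 72 UMIs in precursors and 0 in newly formed cells, at least 41.6-fold lower. Mki67, a marker of cycling cells, had 29 and 2 UMIs, a ratio of 25.2 (exact 95% interval 6.36 to 218). Few precursors carried them: Top2a was found in 7 of 90 and 11 of 104 precursors, and Mki67 in 5 and 7. Ube2c, Prc1, 2810417H13Rik and Lockd, among the 10 genes with the largest falls, are also genes of dividing cells, apart from the non-coding Lockd beside a cell cycle inhibitor gene. Ccnd1, the cyclin D1 gene that responds to growth factors, was at 24.4 and 6.64 CPM against 468 and 443 CPM (-5.02 ± 0.27, edgeR adjusted p = 3.5e-71). The exceptions were Cdk4 and Rb1, both higher, at log2 fold changes of 0.62 ± 0.21 and 1.19 ± 0.48, and both lost the call with plain totals and under DESeq2.

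Spry4 and Etv4, a feedback inhibitor and a transcription factor of the receptor tyrosine kinase pathway, were among the 10 largest falls too. Spry4 had 49 UMIs in precursors and 0 in newly formed cells, at least 28.3-fold lower. The same list held Kcnip3, a calcium-binding channel partner, at 4.87 and 9.96 CPM against 432 and 484 CPM (-5.84 ± 0.30), and C1ql2, a secreted C1q-like protein, with 1 UMI against 52, a ratio of 90.2 (15.5 to 3630).

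Of 22 tested neurotransmitter receptor and channel genes known from precursors, 17 were lower and 2 higher. Cacng4, an AMPA receptor partner, stood at 122 and 96.3 CPM against 712 and 660 CPM (-2.69 ± 0.18), and the metabotropic glutamate receptor Grm5 at 29.2 and 36.5 CPM against 189 and 233 CPM (-2.69 ± 0.27). Gria2, which makes AMPA receptors impermeable to calcium, changed less, from 584 and 751 CPM in precursors to 453 and 519 CPM (-0.48 ± 0.15), and was still 3.47 ± 0.16 higher than in mature cells on the log2 scale. Its fall against precursors was not called by DESeq2, and without the newly formed cells with 5 or more mature UMIs its log2 difference was 0.28. The 2 higher genes were potassium channel genes, Kcnj10 (Kir4.1; 0.71 ± 0.17) and Kcna1 (2.72 ± 0.32), of which DESeq2 did not call Kcnj10. The neuronal markers also summed higher in precursors, and the part of neuronal RNA in these falls was not tested.

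In the summed newly formed cells, myelin genes stood at very unequal fractions of their mature level. Those sums mix unlike cells. Of their 423879 and 634204 UMIs, 232412 and 388997 came from the 32 and 50 cells with 5 or more mature UMIs. Of 26 tested, 24 were higher in newly formed cells than in precursors, and of 28 tested against mature cells, 23 were lower and 1 higher. Mbp, myelin basic protein, stood near the mature level, at 13480 and 15920 CPM against 13480 and 13810 CPM, a log2 difference of 0.13 ± 0.10 that did not pass the test (edgeR adjusted p = 0.35). Tppp, which nucleates microtubules in oligodendrocytes, was at 631 and 821 CPM against 847 and 847 CPM in mature cells (-0.19 ± 0.12, edgeR adjusted p = 0.24). These 2 differences from mature cells did not pass the test, which does not show that the levels were equal.

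Other myelin genes lagged. Car2, carbonic anhydrase 2, stood at 158 and 164 CPM in newly formed cells against 2290 and 2210 CPM in mature cells, a log2 fold change of -3.77 ± 0.15 (edgeR adjusted p = 6.5e-140). Mal, a raft protein of compact myelin, was at 1001 and 451 CPM against 7478 and 7229 CPM (-3.40 ± 0.13). Trf, transferrin, was at 433 and 274 CPM against 2640 and 2362 CPM (-2.82 ± 0.13). All 3 were higher than in precursors, and in none did the newly formed and mature levels overlap. With 8 or more UMIs of the choosing genes required, Car2 and Mal were no longer called against precursors. Mal was found in 16 of 84 and 17 of 110 newly formed cells, Car2 in 14 and 31, and Trf in 30 and 42. In mature cells Mal was found in 606 of 608 and 598 of 602. The newly formed levels of these genes are thus means over cells with and without them. The single gene of the list that was higher than in mature cells was Cd9, a tetraspanin, at 657 and 450 CPM against 243 and 191 CPM (1.37 ± 0.13).

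**Figure D2:**
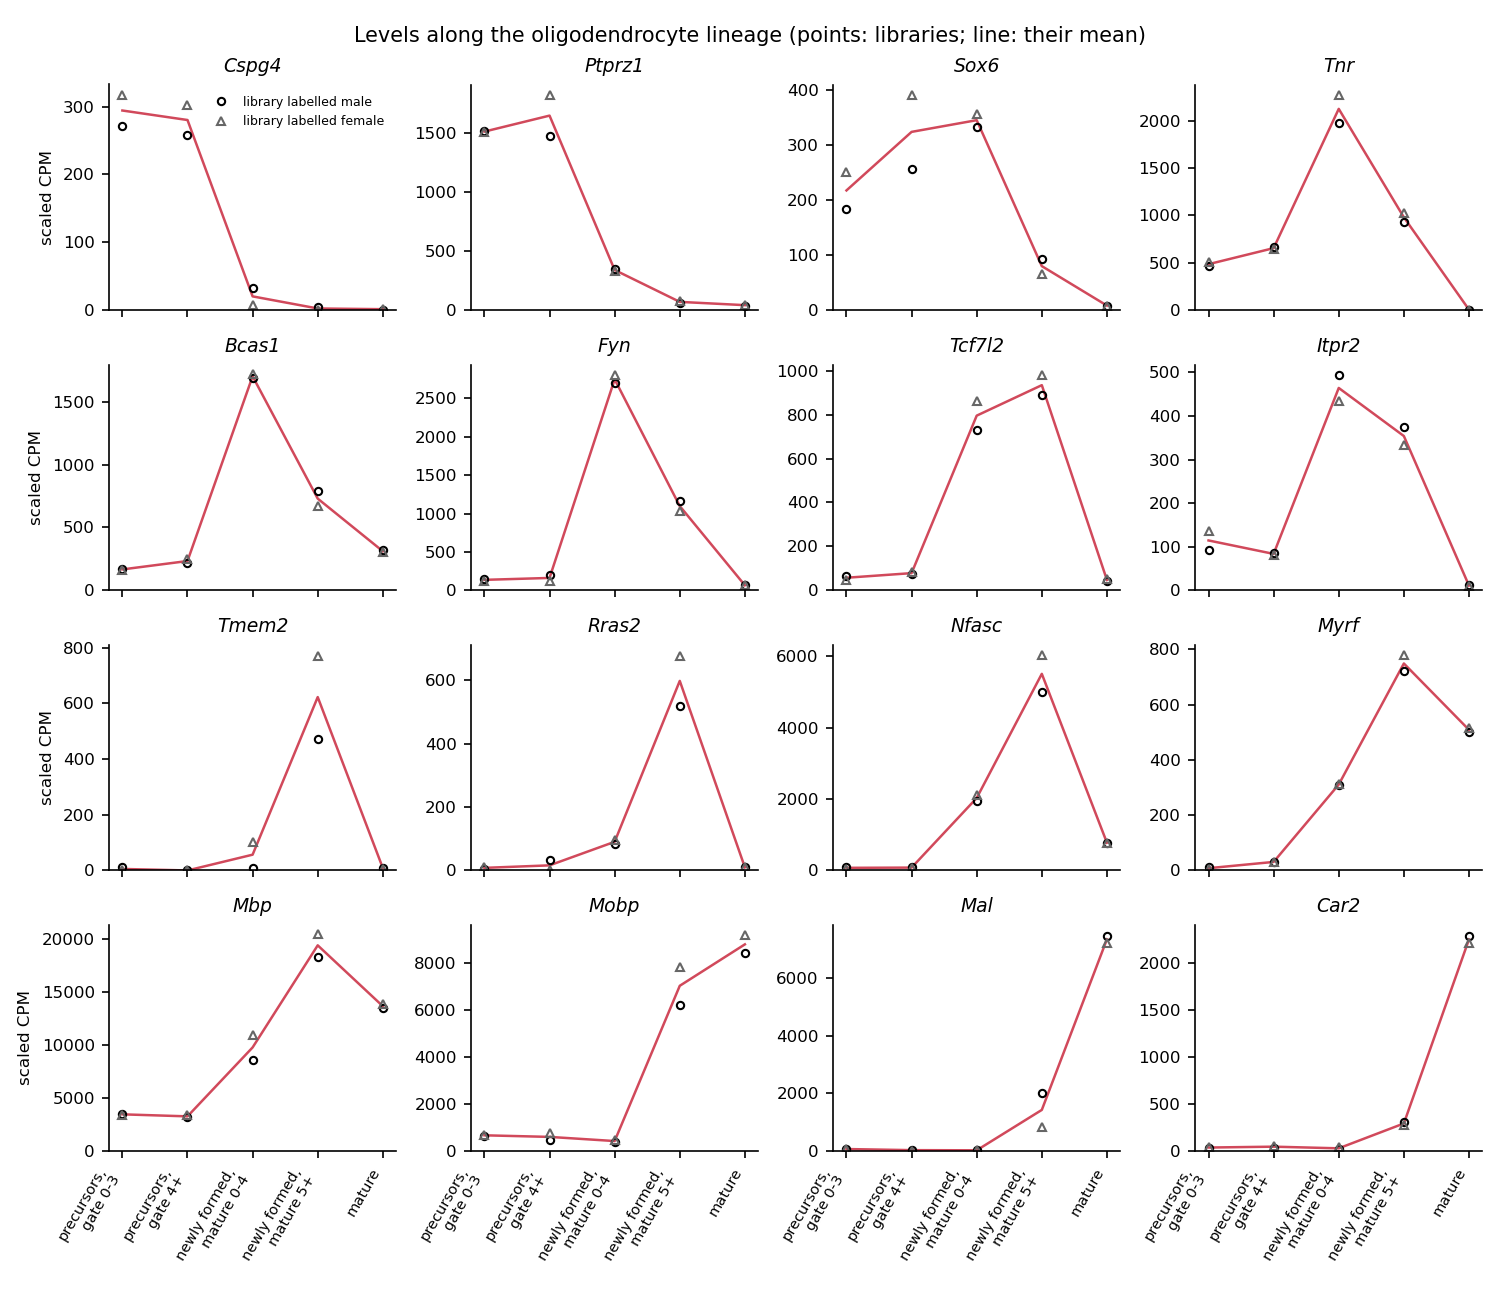
TMM-scaled CPM of 16 genes (vertical axis, linear from 0) in precursors with 0 to 3 and with 4 or more UMIs of the choosing genes, in newly formed cells with 0 to 4 and with 5 or more mature UMIs, and in mature cells; circles and triangles are the libraries labelled male and female and the line joins their means. Bcas1, Fyn and Tnr peak in newly formed cells with few mature UMIs, Tmem2, Rras2 and Nfasc in those with 5 or more, and Mal and Car2 are high in mature cells.

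Lipid genes were partly switched on. Of 19 tested cholesterol synthesis genes 14 were higher and 0 lower than in precursors, with a list median log2 fold change of 1.53. Hmgcs1, which makes the precursor of mevalonate, rose from 98.0 and 88.0 CPM to 619 and 981 CPM (3.08 ± 0.20). Lss, which closes the sterol ring system, was higher than in mature cells (0.88 ± 0.21). Against mature cells 5 of 21 tested genes were higher and 5 lower, where 15.3% and 15.8% of all genes were higher and lower. That split rested on the newly formed cells with mature transcripts: without those with 5 or more mature UMIs, 0 were higher and 13 lower. With plain totals it was 6 and 1, and DESeq2 called 2 and 0.

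Of sphingolipid and fatty acid genes, 11 of 18 tested were higher and 0 lower than in precursors, and 1 was higher and 12 lower than in mature cells. Ugt8a, which makes galactosylceramide, was at 1203 and 1303 CPM, against 113 and 69.2 CPM in precursors and 1856 and 1733 CPM in mature cells. Fa2h, which hydroxylates the fatty acids of myelin lipids, was at 558 and 554 CPM, against 43.6 and 47.1 CPM and 1251 and 1272 CPM. Both were intermediate in both libraries, although with plain totals Ugt8a was not called against mature cells. Scd1, a desaturase, had no call against precursors: its 75.5 and 53.1 CPM did not pass the test there (-0.16 ± 0.32, edgeR adjusted p = 0.73) and were lower than the 250 and 266 CPM of mature cells (-2.01 ± 0.19). The exception was Acsl3, a fatty acid activating enzyme, higher than in both groups (1.92 ± 0.20 and 0.95 ± 0.14).

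Many cytoskeletal genes stood above both other groups. Of 30 tested against precursors 21 were higher and 4 lower, and of 29 against mature cells 15 were higher and 8 lower. Marcks, an actin-regulating substrate of protein kinase C, stood at 2613 and 3053 CPM against 1060 and 1141 CPM in precursors and 77.8 and 82.2 CPM in mature cells. Tuba1a, the alpha-tubulin of growing processes, stood at 3740 and 3019 CPM, against 697 and 622 CPM and 926 and 773 CPM. Fyn, the kinase that links axon contact to process growth and Mbp translation, stood at 1970 and 1772 CPM, against 171 and 119 CPM and 64.3 and 65.9 CPM (3.68 ± 0.17 and 4.87 ± 0.14, edgeR adjusted p = 4.3e-93 and 6.4e-232). Arpc1b, a subunit of the actin-branching Arp2/3 complex, stood at 1098 and 1459 CPM, against 29.0 and 59.7 CPM and 600 and 515 CPM. In these 4 genes both newly formed libraries lay above every library of the other groups. Without the newly formed cells with 5 or more mature UMIs, Arpc1b was instead lower than in mature cells, by -0.69 on the log2 scale. Stmn1 (stathmin, which destabilises microtubules) went the other way, at 231 and 179 CPM against 381 and 280 CPM in precursors and 1826 and 1617 CPM in mature cells, lower than in both (-0.71 ± 0.18 and -3.05 ± 0.14), though DESeq2 did not call the fall against precursors.

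Genes of axon contact were similar, with 14 of 24 higher and 6 lower than in precursors and 13 of 24 higher and 6 lower than in mature cells. Nfasc (neurofascin; GRCm38 chr1:132564690-132741797, minus strand), which organises the contact of myelin with the axon, stood at 3467 and 4215 CPM, against 90.8 and 62.9 CPM in precursors and 777 and 775 CPM in mature cells (5.63 ± 0.19 and 2.33 ± 0.12). Sema5a and Sema6a, semaphorins that guide processes, were higher than in both groups, Sema5a by 1.81 ± 0.19 and 4.07 ± 0.17 and Sema6a by 2.73 ± 0.20 and 0.98 ± 0.13 on the log2 scale. Sema6a rested on the cells with mature transcripts, and without those its log2 fold change against mature cells was -1.37. Cntn2 and Epb41l3, parts of the juxtaparanode and paranode of mature myelin, were instead lower than in mature cells (-3.20 ± 0.17 and -2.46 ± 0.16).

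**Figure D3:**
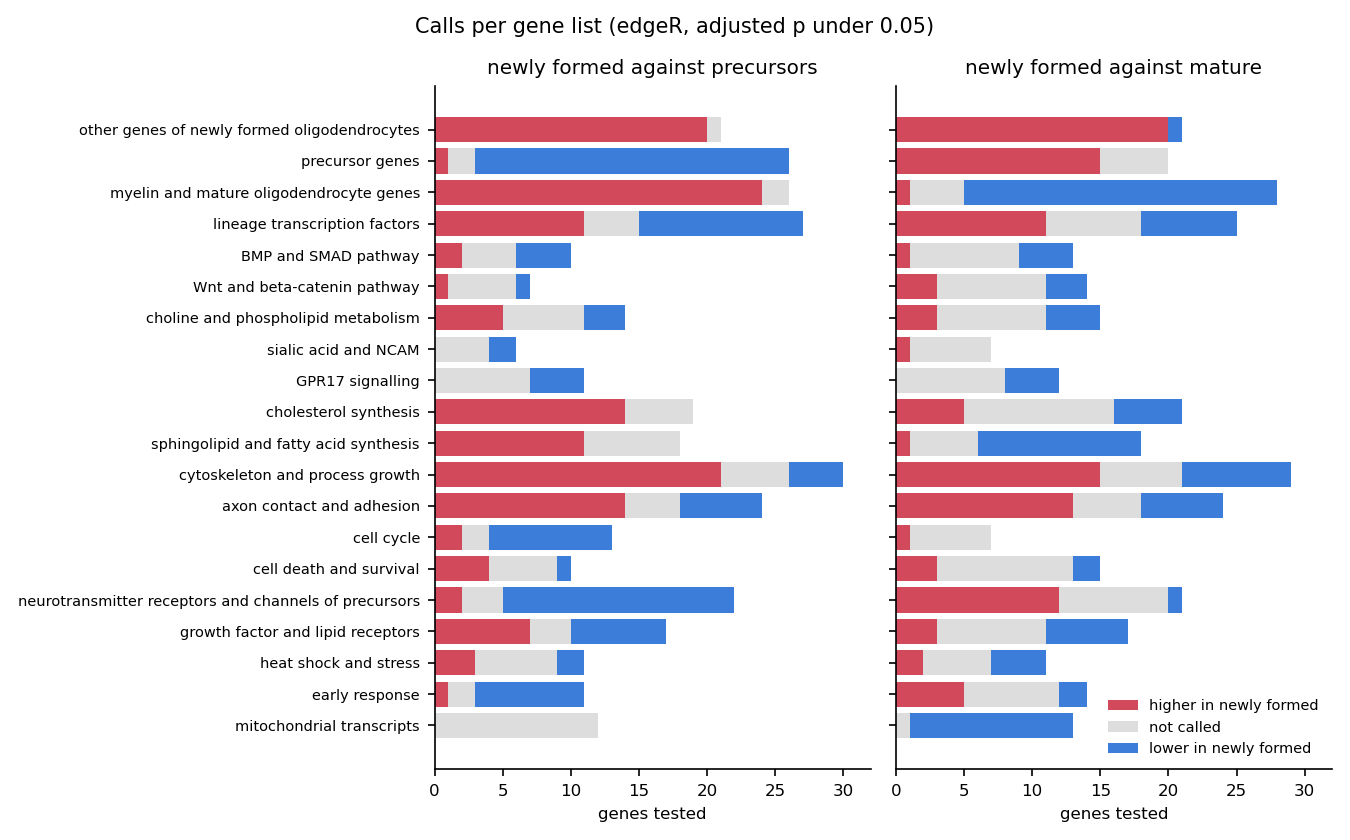
Bars give, for each of 20 gene lists, the number of tested genes higher (red), lower (blue) or not called (grey) in newly formed cells by edgeR at an adjusted p under 0.05, against precursors (left) and mature cells (right). Myelin genes are mostly higher on the left and lower on the right, precursor genes the reverse, and other genes of newly formed oligodendrocytes are higher on both sides.

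Against mature cells, 9899 genes were tested and 1513 were higher (15.3%) and 1567 lower (15.8%) in newly formed cells. The split was 3001 and 818 with plain totals, and DESeq2 called 589 and 611. Genes known from other work on newly formed oligodendrocytes, apart from those that chose the cells, had the highest medians of the 20 lists in both comparisons. Of 21 tested, 20 were higher than in precursors and 20 were higher than in mature cells, with list medians of 3.32 and 3.43 on the log2 scale. The list was drawn up with earlier results of these data known, so its direction is not independent evidence. Tcf7l2 (GRCm38 chr19:55741820-55933654, plus strand), a transcription factor of the Wnt pathway that is needed for differentiation, stood at 816 and 909 CPM, against 69.0 and 62.9 CPM in precursors and 43.6 and 50.6 CPM in mature cells. Itpr2, an endoplasmic calcium channel, stood at 441 and 370 CPM, against 90.8 and 113 CPM and 11.9 and 9.75 CPM. Bcas1, a myelin-associated protein used to find early myelinating cells, stood at 1264 and 1107 CPM, against 185 and 201 CPM and 319 and 302 CPM. Gpr37, a receptor that restrains differentiation, was the 1 gene lower than in mature cells (-1.77 ± 0.15), and Nkx2-2, at 192 and 163 CPM against 196 and 129 CPM in precursors, was the 1 gene with no call there (0.12 ± 0.21, edgeR adjusted p = 0.68).

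The 12 genes that stood farthest above both other groups were Rassf10, Tmem2, Brca1, Rras2, Rgs16, Cnksr3, Kif19a, Pik3r3, Gp1bb, Frmd4a, Il23a and Tcf7l2. Rassf10 (GRCm38 chr7:112953962-112957457, plus strand), of the Ras association domain family, had 124 UMIs in 26 and 40 newly formed cells, 0 UMIs in precursors and 1 in mature cells. In the cells outside the 3 groups, 20 of 2494 and 27 of 2814 had a UMI of it. It was at least 23.8-fold higher than in precursors, and its ratio to mature cells was 510 (exact 95% interval 89.9 to 20320). Frmd4a (chr2:4017717-4614043, plus strand), a scaffold of cell polarity, was the most abundant of the 12, at 1824 and 1940 CPM against 113 and 113 CPM in precursors and 41.5 and 48.3 CPM in mature cells (4.03 ± 0.18 and 5.42 ± 0.15). Pik3r3, a regulatory subunit of PI3-kinase, stood at 514 and 521 CPM against 29.0 and 12.6 CPM and 30.1 and 30.2 CPM, and Rras2 (chr7:114046782-114117781, minus strand), a Ras-related GTPase, at 300 and 413 CPM against 14.5 and 6.29 CPM and 9.34 and 10.2 CPM. Brca1, the DNA repair gene, was among them at 161 and 115 CPM, with 2 UMIs in precursors and 2.08 and 1.86 CPM in mature cells, while Top2a and Prc1 stood at 0.

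Il23a, a subunit of the cytokine interleukin 23, rested on few cells. Its 67 UMIs came from 6 and 21 newly formed cells, and in the library labelled male 1 cell held 50% of them. Against mature cells it was 3.86 ± 0.38 higher on the log2 scale.

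Among the largest rises over precursors, all at 0 UMIs there, were Tmem125, Rassf10, S1pr5, Cldn14, Cd82, Il23a, Fcnaos, Nipal4 and Nfe2l3. Their bounds ran from at least 10.8-fold for Nfe2l3 to at least 36.1-fold for Tmem125. Tmem125, a membrane protein, had 188 UMIs, and S1pr5, the sphingosine-1-phosphate receptor of oligodendrocytes, had 108 (at least 20.8-fold). S1pr5 was still below the mature level (-0.96 ± 0.18), a call lost under DESeq2. Of these 9, DESeq2 called Nfe2l3 alone against precursors, and it did not call Cdo1, Top2a or Spry4 among those at 0 in newly formed cells. Fcnaos is an antisense gene, and since the use of strand in counting is not given in the sources used here, its reads cannot be told apart from those of the opposite gene. Against mature cells the largest rises, after Rassf10 and Tnr, were Mycl, Ppfibp1, Susd5, 5730559C18Rik, Vcan, Traf4, Brca1 and Pnpla3. Mycl, a Myc family factor, was at 302 and 227 CPM against 1.56 and 0.93 CPM (7.67 ± 0.30), and Vcan, the matrix proteoglycan versican, at 173 and 174 CPM against 1.04 and 2.79 CPM (6.43 ± 0.32).

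The largest falls against mature cells were Arid5b, Adamtsl1, Dock5, Serpinb1a, Hba-a2, Gm13293, RP23-44H21.1, Pde8a, Prox1os and Cyp2j12. Arid5b, a chromatin factor, had 209 UMIs in mature cells and 0 in newly formed cells, at least 16.9-fold lower, although DESeq2 did not call it. Dock5, an activator of Rac, had 294 UMIs in mature cells and 1 in newly formed cells, a ratio of 71.4 (12.7 to 2830). Pde8a, a cyclic AMP phosphodiesterase, was at 19.5 and 4.98 CPM against 180 and 189 CPM (-4.04 ± 0.30). Hba-a2 is a globin gene and not one of this lineage. It stood at 4.67 and 209 CPM in the mature sums, and in the library labelled female 3 mature cells had 5 or more UMIs of globin genes.

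Transcription factors of the lineage were divided. Of 27 tested against precursors 11 were higher and 12 lower, where 19.4% and 19.5% of all genes were higher and lower. Of 25 tested against mature cells 11 were higher and 7 lower, where the general shares were 15.3% and 15.8%. Myrf, the factor that starts the myelin program, was at 516 and 561 CPM, against 18.2 and 15.7 CPM in precursors (4.95 ± 0.29, edgeR adjusted p = 2.6e-60) and 501 and 517 CPM in mature cells, where the log2 difference of 0.11 ± 0.13 did not pass the test (edgeR adjusted p = 0.56). Sox4 was at 896 and 838 CPM, against 163 and 201 CPM and 30.6 and 26.9 CPM, and was higher than in both groups (2.21 ± 0.17 and 4.94 ± 0.16). Sox8 and Sox10, the Sox factors present throughout the lineage, were also higher than in both, by 0.68 ± 0.15 and 0.84 ± 0.16 over precursors and 0.63 ± 0.12 and 0.54 ± 0.13 over mature cells. Nkx6-2 had risen over precursors (2.39 ± 0.27) but stood below mature cells (-1.61 ± 0.14), and Nfia and Nfib, of the nuclear factor I family, were lower than in both (Nfia -1.41 ± 0.20 and -1.22 ± 0.18). DESeq2 called neither Sox8 against precursors nor Nfib in either comparison.

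Of the pathways around the choosing genes, BMP and choline genes went both ways, while the called genes of GPR17 signalling were lower against both groups. Over all genes, 19.4% were higher and 19.5% lower than in precursors, and 15.3% and 15.8% than in mature cells. The lists are short and several of their counts lie near these shares, so the counts alone do not set a pathway apart. Of 10 tested BMP and SMAD genes 2 were higher and 4 lower than in precursors, against 1 higher and 4 lower of 13 in the comparison with mature cells. With plain totals that last split was 4 higher and 0 lower. Smad7, an inhibitor of the pathway, was at 270 and 347 CPM against 14.5 and 12.6 CPM in precursors (4.47 ± 0.33), and Zeb2, a repressor that counters BMP signals in oligodendrocytes, at 811 and 785 CPM against 218 and 229 CPM (1.81 ± 0.17). The targets Id2 (-3.25 ± 0.26) and Id3 (-2.78 ± 0.37) were lower, as was Bmp7 (-3.90 ± 0.51). Besides Tcf7l2, Wnt targets and partners were sparse: Axin2, a feedback target, was at 31.7 and 23.2 CPM against 5.19 and 6.50 CPM in mature cells (edgeR adjusted p = 4.5e-06), and Tcf7l1 at 39.0 and 29.9 CPM against 3.11 and 6.04 CPM (2.86 ± 0.43), while in the comparison with precursors neither was tested. DESeq2 did not call Axin2. Of 14 tested genes of choline and phospholipid metabolism, the setting of Enpp6, 5 were higher and 3 lower than in precursors. Slc44a1, a choline transporter, was highest in newly formed cells, at 1278 and 1085 CPM against 72.6 and 66.0 CPM in precursors and 599 and 496 CPM in mature cells (4.06 ± 0.20 and 1.14 ± 0.12). Of 11 tested genes of GPR17 signalling 0 were higher and 4 lower than in precursors, and of 12 tested against mature cells 0 and 4. DESeq2 called 1 and 3 of these lower, and with plain totals 4 and 2 were lower. Of 6 tested genes of sialic acid metabolism 0 were higher and 2 lower than in precursors, and of 7 tested against mature cells 1 was higher and 0 lower, or 4 and 0 with plain totals.

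Receptors for growth factors and lipids went both ways. Of 17 tested, 7 were higher and 7 lower than in precursors, where 19.4% and 19.5% of all genes were higher and lower. Fgfr1 (-3.25 ± 0.49), Ntrk2 (-1.69 ± 0.18) and Fgfr3 (-1.50 ± 0.39, not called by DESeq2) were lower, while Fgfr2, with 2 UMIs in precursors and 137 in newly formed cells, had a ratio of 39.5 (exact 95% interval 10.7 to 329), and Lpar1, the lysophosphatidic acid receptor, was 5.13 ± 0.34 higher. Thra, the thyroid hormone receptor alpha, was at 1084 and 1265 CPM, against 287 and 295 CPM in precursors and 669 and 741 CPM in mature cells, higher than in both. Of 10 tested genes of cell death and survival 4 were higher and 1 lower than in precursors (1 and 2 with plain totals, 0 and 1 by DESeq2). The shares over all genes in that comparison were 19.4% and 19.5%. Of 15 tested against mature cells 3 were higher and 2 lower, Bcl2l1 (-1.49 ± 0.20) and Xiap (-0.71 ± 0.21), both inhibitors of apoptosis, where 15.3% and 15.8% of all genes were higher and lower. Bcl2, an inhibitor of apoptosis, was lower than in precursors (-3.46 ± 0.43), and Bax, Bak1 and Tfeb were higher than in both groups, by 0.71 ± 0.16, 1.47 ± 0.25 and 0.57 ± 0.22 against mature cells. DESeq2 called none of these 3 against precursors and Bak1 alone against mature cells. Bcl2l1 was higher than in precursors (1.14 ± 0.39), a call that DESeq2 did not make, nor did it call Xiap against mature cells. Tfeb encodes a lysosomal factor known to act on survival of premyelinating oligodendrocytes, and Bax and Bak1 encode pore-forming proteins of apoptosis.

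Mitochondrially encoded transcripts were lower than in mature cells. Of 12 tested against precursors, edgeR called 0, with 1 at an unadjusted p under 0.05 and 0 called by DESeq2. With plain totals 11 were lower. Of 13 tested against mature cells 12 were lower, with a list median of -0.83 on the log2 scale. The median share of mitochondrial UMIs per cell was 7.79% and 8.30% in newly formed cells. It was higher in both other groups, at 9.20% and 10.0% in precursors and 10.1% and 10.8% in mature cells. Early response genes, which dissociation can induce, were lower than in precursors for 8 of 11 tested genes and higher for 1. Against mature cells 5 of 14 were higher and 2 lower, where 15.3% and 15.8% of all genes were higher and lower. Some of these genes differed between the libraries in precursors. Egr1 was found in 45 of 90 and 7 of 104 precursors and Fos in 34 and 9, while Nr4a1 was found in 18 and 18.

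Within the newly formed cells, those with 1 or more Bmp4 UMIs (49 and 50 cells) were set against those with 0 (35 and 60). Cells with Bmp4 held more precursor transcripts and cells without it more myelin transcripts. Bmp4 is itself a choosing gene, so cells without it reached 4 UMIs through Enpp6, Neu4 or Gpr17 alone. Enpp6 was found in 97 of 608 and 108 of 602 mature cells, and Bmp4 in 3 and 2. The direction of this difference is thus in part set by the choice, and the p-values below do not test it independently. Of 4224 genes tested, 459 were higher (10.9%) and 675 lower (16%) in cells with Bmp4. The split was 775 and 451 with plain totals, and DESeq2 called 60 and 190. Cells with Bmp4 were smaller, with a median of 3575 and 4074.5 UMIs against 6753 and 6858.5. Thinned to 2000 UMIs per cell, 62 were higher and 164 lower. Mature UMIs at 5 or more were found in 7 of 49 and 8 of 50 cells with Bmp4 and in 25 of 35 and 42 of 60 cells without.

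Of 14 tested precursor genes 12 were higher and 0 lower in cells with Bmp4, and of 23 myelin genes 2 were higher (Cd9 and Ptgds, of which Ptgds rested on 1 cell) and 19 lower. Vcan stood at 297 and 390 CPM with Bmp4 and at 43.9 and 51.4 CPM without (2.85 ± 0.29, edgeR adjusted p = 6.7e-08). Sox6 stood at 369 and 376 CPM against 63.4 and 86.5 CPM (2.27 ± 0.27), and Nkx2-2 at 316 and 340 CPM against 63.4 and 62.2 CPM (2.39 ± 0.28). In the other direction Mobp, a small basic protein of compact myelin, stood at 847 and 354 CPM against 5677 and 7110 CPM (-3.50 ± 0.28, edgeR adjusted p = 4.6e-09), and Tspan2, a tetraspanin of myelin, at 436 and 240 CPM against 2178 and 2571 CPM (-2.85 ± 0.26). Cholesterol synthesis was on the side without Bmp4, with 0 of 19 tested genes higher and 13 lower in cells with it, and so were 8 of 15 sphingolipid and fatty acid genes.

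The genes of newly formed oligodendrocytes were divided between the 2 sets, with 6 higher and 9 lower of 21 tested. Fyn (2868 and 3305 CPM against 1023 and 917 CPM), Bcas1 (1795 and 1854 CPM against 702 and 698 CPM) and Mycl were higher with Bmp4. So was Lims2, an adaptor of integrin adhesions, at 2111 and 2480 CPM against 414 and 354 CPM. Lims2 (chr18:31922290-31958619, plus strand) spans the choosing gene Gpr17 (chr18:31942997-31949636, minus strand). Since the use of strand in counting is not given, reads of Lims2 cannot be told apart from those of Gpr17. Tmem2 (chr19:21778342-21858360, plus strand), a cell surface hyaluronidase, stood at 19.2 and 4.53 CPM with Bmp4 and at 458 and 760 CPM without (-5.64 ± 0.42, edgeR adjusted p = 1.7e-09). Rras2 (-2.50 ± 0.35), Cnksr3 (-2.45 ± 0.28), Nfasc (-1.42 ± 0.21) and Prom1 (-3.40 ± 0.47) were lower with Bmp4 as well. Tcf7l2 and Itpr2 did not pass the test between the sets (-0.53 ± 0.24 and 0.45 ± 0.22, edgeR adjusted p = 0.10 and 0.15), and Frmd4a and Rassf10 did not either (edgeR adjusted p = 0.87 and 0.41). Genes that stood above both precursors and mature cells thus included genes higher with Bmp4, genes lower with it and genes with no call.

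**Figure D4:**
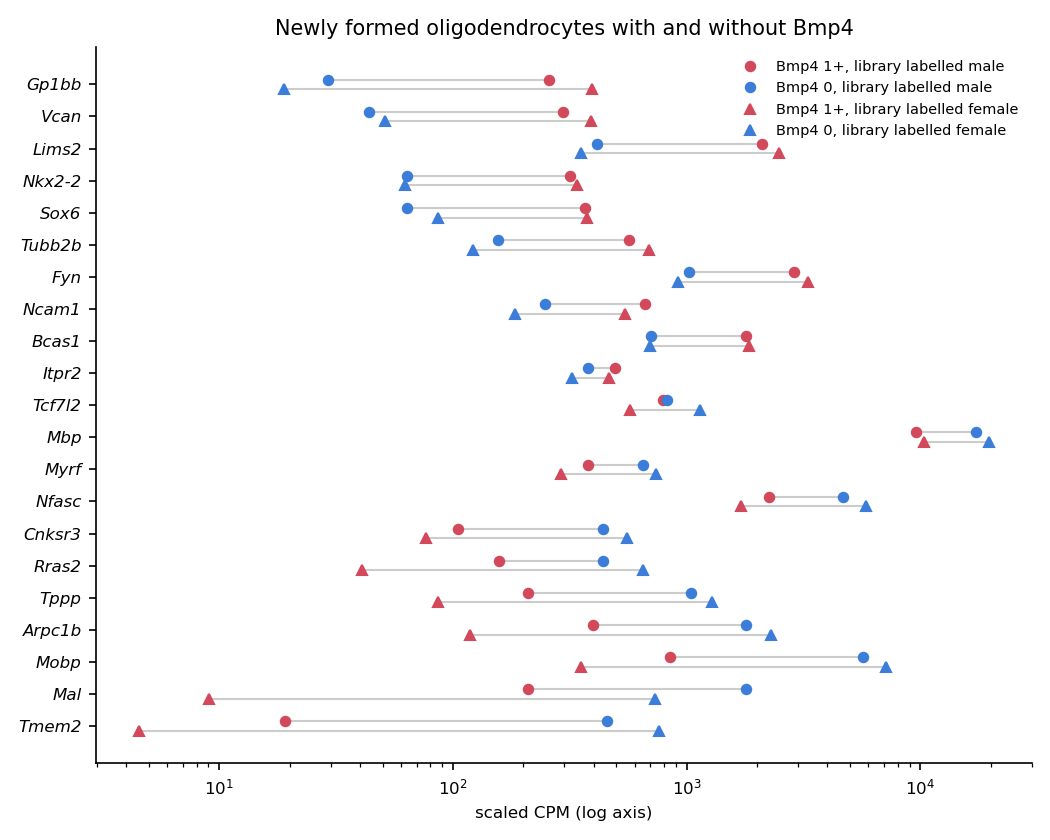
TMM-scaled CPM (horizontal log axis) of 21 genes in newly formed cells with 1 or more Bmp4 UMIs (red) and with 0 (blue), circles for the male label and triangles for the female label, each pair joined by a grey line and genes ordered by fold. Gp1bb and Vcan are higher with Bmp4, as is Lims2, which spans the choosing gene Gpr17. Tmem2, Mal and Mobp are higher without it, and Tcf7l2 and Itpr2 differ little.

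The 6 largest rises with Bmp4 were Matn1, Gp1bb, Galnt10, Ifnar2, Gm4876 and Gpr146. Gp1bb, known as a platelet glycoprotein, was the most abundant of them, at 259 and 395 CPM against 29.2 and 18.9 CPM (3.87 ± 0.35, edgeR adjusted p = 2.0e-08), and it was found in 33 and 44 newly formed cells. Matn1, matrilin 1, had 25 UMIs with Bmp4 and 1 without, a ratio of 33.5 (exact 95% interval 5.48 to 1373). The 6 largest falls were Arap2, Il23a, Fcnaos, Dubr, Prima1 and Coro2b. Arap2, which regulates small GTPases, had 102 UMIs in cells without Bmp4 and 0 with it, at least 25.4-fold lower. Coro2b, an actin-binding coronin, had 105 and 1, a ratio of 78.5 (13.8 to 3129). DESeq2 did not call Matn1, Galnt10, Gm4876, Arap2, Il23a and Fcnaos, nor Prom1, and in thinned cells Sox6 and Rras2 were no longer called between the sets.

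Division of newly formed cells at 5 mature UMIs separates largely the same cells as Bmp4, and is described with no test. In cells below it, Fyn stood at 2694 and 2802 CPM, Bcas1 at 1688 and 1717 CPM, Cd9 at 1053 and 770 CPM and Gp1bb at 259 and 320 CPM, and in cells at or above it at 1164 and 1029, 789 and 669, 227 and 215, and 24.7 and 33.3 CPM. Tmem2 went from 9.40 and 104 CPM to 474 and 772 CPM, Sema6a from 75.2 and 185 CPM to 1036 and 1293 CPM, and Nfasc from 1937 and 2121 CPM to 4992 and 6022 CPM. In mature cells these 3 were at 10.4 and 6.97, 350 and 343, and 777 and 775 CPM, so all 3 were highest in newly formed cells that already carried mature transcripts. Cntn1, contactin, had a different course. It stood at 647 and 655 CPM in precursors with few choosing UMIs, at 240 and 289 CPM in newly formed cells with few mature UMIs, at 775 and 1332 CPM in those with 5 or more and at 259 and 272 CPM in mature cells. Taken as 1 group the newly formed cells did not differ from precursors in Cntn1 by the test (-0.15 ± 0.15, edgeR adjusted p = 0.46). Within precursors, those with 4 or more UMIs of Neu4 and Gpr17 and the other choosing genes stayed far below newly formed cells in Fyn and Bcas1. Fyn stood at 204 and 118 CPM in them and at 152 and 120 CPM in precursors with fewer choosing UMIs. Bcas1 stood at 215 and 251 CPM in the former and at 168 and 164 CPM in the latter.

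Between the libraries, genes of newly formed cells were counted that differed by 2-fold or more with an interval of the ratio that left out 1. Of 3868 genes with 50 or more CPM in at least 1 library, 57 were higher in the library labelled male (1.47%) and 46 in the library labelled female (1.19%). In thinned cells these counts were 108 and 74, and with 8 or more UMIs of the choosing genes 87 and 76. Xist was 84.2 times higher in the library labelled male, and Eif2s3y and Ddx3y, both Y-linked, had 0 UMIs there against 91 and 134. The early response genes Jun (106 and 42 UMIs, ratio 3.78, exact 95% interval 2.62 to 5.54) and Egr1 (22 and 6 UMIs, ratio 5.49, 2.16 to 16.5) were higher in the library labelled male. Jun was also higher there in precursors, at 679 and 176 CPM, and in mature cells, at 143 and 98.9 CPM. Klk6, Nfu1 and Rab26os were the others of the 6 largest on that side, and Klk6, a protease of mature oligodendrocytes, came from 3 and 3 cells, of which 1 held 51.9% of its UMIs in the library labelled male. On the other side Spp1, Ptgds, Scmh1 and Tle1 completed the 6 largest. Ptgds, prostaglandin D synthase, had 88 and 648 UMIs, and a single newly formed cell with the female label carried 458 of the latter. With 1 library per label these differences cannot be told apart from differences between the pools, the dissociations or the libraries.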

How the data were processed

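The authors deposited 1 matrix of whole-number UMI counts per library, for which the submitters' processing notes name Cell Ranger 2.2.0 and the builds GRCm38 and mm10; whether counting used strand is not given in the sources used here. Depth was 23151801 and 27437142 UMIs, with 423879 and 634204 in newly formed cells. Genes were matched by identifier to GENCODE M21 (GRCm38) for coordinates. Cells were grouped by the UMI limits given above, and counts were summed per library and group. The sums of both groups in a comparison come from the same libraries and animals, so the library is a block in the fit. Genes were filtered with edgeR's filterByExpr, scaled by TMM and tested with edgeR 4.0.16 (quasi-likelihood, R 4.3.3), with Benjamini-Hochberg adjustment over all genes and a threshold of 0.05. The fit was also run on simulated data in which every gene had the same spread. That run cannot show how the fit behaves where genes differ in their spread between pools. The members and gene lists were chosen with earlier results of these data known, and genes that chose the cells were left out of every count.

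The text names the 10 largest changes each way (6 for the Bmp4 split and between libraries) among genes called, of like direction in both libraries and at 50 CPM or more in the higher group, the 12 genes farthest above both other groups, and members of the lists. A few genes that these rules name are not reported here. Genes at 0 in a group are given as bounds against 3 UMIs over the group. Between libraries the ratio has an exact binomial 95% interval, which covers counting error only. Alternatives were DESeq2 1.42.0 and its size factors, no filter, no block, cells thinned to 2000 UMIs, doublets removed (Scrublet in scanpy 1.11.5, at 0.8% per 1000 barcodes), other UMI limits, single libraries and, chosen after seeing the data, plain library totals.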

Additional observations from a re-analysis of the deposited data

Results flagged for a closer look

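Ptgds, prostaglandin D synthase, went opposite ways in the 2 libraries when newly formed cells with and without Bmp4 were compared. Its log2 fold change was -0.55 in the library labelled male and 2.71 in the library labelled female, and the difference between the libraries was not tested. In the library labelled female 1 newly formed cell held 458 of the 648 UMIs (70.7%), while in the library labelled male the cell with most UMIs held 12 of 88 (13.6%). The call of Ptgds in that comparison was lost under DESeq2 (adjusted p = 0.95).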

How the results depend on the processing

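Each comparison has 1 residual degree of freedom, so its calls lean on the spread shared over genes. DESeq2, which makes another use of that spread, called 535 genes higher and 366 lower against precursors, 589 and 611 against mature cells, and 60 and 190 in cells with Bmp4. With cells thinned to 2000 UMIs the counts were 679 and 671 against precursors, 998 higher against mature cells, and 62 and 164 with Bmp4, from fewer UMIs. Plain library totals, chosen after seeing the data, gave 2088 lower against precursors, 3001 higher and 818 lower against mature cells, and 775 higher with Bmp4. Without the newly formed cells with 5 or more mature UMIs, 675 were higher and 715 lower than in precursors. In a fit with no replicate block the counts were 1158 and 1200, 1337 and 1358, and 405 and 628, each within 1.5 times of the paired fit.

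Of 345 values of named genes, 261 kept their direction and side of the threshold under DESeq2 and 84 lost the call, among them Sox8, Nfib, Kcnj10 and Fgfr3 against precursors and Lss and Axin2 against mature cells. Without the newly formed cells with mature transcripts, the log2 fold changes against precursors turned to -1.75 for Epb41l3, 0.28 for Gria2 and -0.70 for Mobp, and those against mature cells to -0.69 for Arpc1b, -2.93 for Fcnaos, -0.65 for Lss and -1.37 for Sema6a. Epb41l3 stood at -0.35 against precursors when 8 UMIs of the choosing genes were required. In thinned cells Kif19a stood at 0.036 between cells with and without Bmp4. In single libraries, values with no test, Ptgds stood at -0.55 in the library labelled male alone and 2.71 in the other in that comparison, and no other named gene turned.

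With at least 1000 genes and at most 10% mitochondrial UMIs, newly formed cells made up 3.46% and 4.12% of cells and 17.9% and 25.8% of the lineage groups. With at most 1 neuronal UMI the share of cells was 2.02% in the library labelled male, and with 8 UMIs of the choosing genes the shares were 2.48% and 11.1% in the library labelled female. Between libraries 108 and 74 genes differed in thinned cells and 87 and 76 with 8 UMIs of the choosing genes.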

Other observations

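Of 11 tested genes of the heat shock list, which also holds stress genes, newly formed cells had 3 at higher and 2 at lower levels than precursors, where 19.4% and 19.5% of all genes were higher and lower. Against mature cells 2 of 11 were higher and 4 lower, where the general shares were 15.3% and 15.8%. DESeq2 called 1 higher and 0 lower against precursors, and 1 and 4 against mature cells. Slc5a7, the high-affinity choline transporter known from cholinergic neurons, had 48 UMIs in newly formed cells and 0 in mature cells, at least 65.9-fold higher, and it was also higher than in precursors. It was chosen after its values were seen, and neuronal markers summed to 340 and 278 CPM in newly formed cells against 221 and 256 CPM in mature cells, whose part in the difference was not tested. Newly formed cells had a median of 2189.5 and 2320 detected genes, against 1452.5 and 1522.5 in precursors and 1666.5 and 1818 in mature cells. Among them, 21 and 39 cells carried Enpp6 without Bmp4, 14 and 8 carried Bmp4 without Enpp6, and 35 and 42 carried both.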
